A study of Mus musculus with 12 samples.

Results

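The IL-27 plasmid given alone was compared with the empty vector in tumor RNA of mice, over all genes, with emphasis on genes for which both IL-27 libraries lay beyond both vector libraries. The 4 libraries concerned, 2 for each group, are part of a set of 12, and 20417 of 55450 genes carried enough counts to be tested. All mice were C57BL/6 males of 8 to 10 weeks with subcutaneous TC2R tumors, which are TRAMP-C2 mouse prostate adenocarcinoma cells that carry an activated H-ras gene from a lentivirus. The control group, pMCS, received the empty plasmid pcDNA3.1. The IL-27 group received pIL27ns, a plasmid for IL-27 with a non-specific peptide at its C-terminus. Both plasmids were delivered into skeletal muscle by sonoporation, in which ultrasound and microbubbles carry DNA into tissue, on day 4. Tumors were collected at day 26. The other 8 libraries, 2 for each of the groups IL-18, 27→18, 27pepL and 27pepL→18, came from tumors treated with recombinant IL-18, with the peptide-targeted plasmid 27pepL, or with either plasmid followed by IL-18, and serve for the estimate of spread and as levels set beside those of the 4 libraries.

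Each library was pooled from 4 to 6 tumors and each group held 4 to 6 mice, so that nothing in the labels shows the 2 libraries of a group to come from separate animals, and p-values measure only the spread between these libraries, which may be technical. The model is 1 tumor line in 1 strain, and the plasmid was delivered into muscle and not into the tumor. RNA of whole tumors cannot tell fewer cells of a type from less RNA per cell. Depth was 49844915 and 54688919 counts in pMCS replicates 1 and 2 and 52128526 and 55856222 counts in IL-27 replicates 1 and 2. Levels are given in CPM, the counts of a gene relative to the library total after scaling with TMM factors, and log2 fold changes are IL-27 over pMCS from edgeR's quasi-likelihood fit.

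IL-27 is a cytokine of myeloid cells built from the subunits p28, encoded by Il27, and EBI3. It binds the receptor chains IL27RA and gp130, and signals through JAK kinases. In T and NK cells this turns on T-bet and with it interferon-γ, which in turn drives guanylate-binding proteins, immunity-related GTPases, antigen presentation and the chemokines CXCL9 and CXCL10 in the cells around them. The factor STAT3 carries an opposing arm, with IL-10 and SOCS3.

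The 2 IL-27 libraries did not show one common change from pMCS. Across log2 CPM of the tested genes, IL-27 replicate 2 correlated with the pMCS libraries at r = 0.926 and 0.938, above its correlation with IL-27 replicate 1 at r = 0.858, and the pMCS libraries correlated with each other at r = 0.901. These are correlations across genes, which are not independent replicates. Replicate 1 lay above both pMCS libraries in 38.5% of genes and below both in 36.5%, whereas replicate 2 did so in 26.5% and 28.2%. Both IL-27 libraries lay above both pMCS libraries for 2183 genes (10.7%) and below for 2366 genes (11.6%). Replicate 1 was above and replicate 2 below both pMCS libraries for 2484 genes (12.2%), and the reverse held for 2163 genes (10.6%), so that the libraries parted in opposite directions about as often as they moved together.

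**Figure D1:**
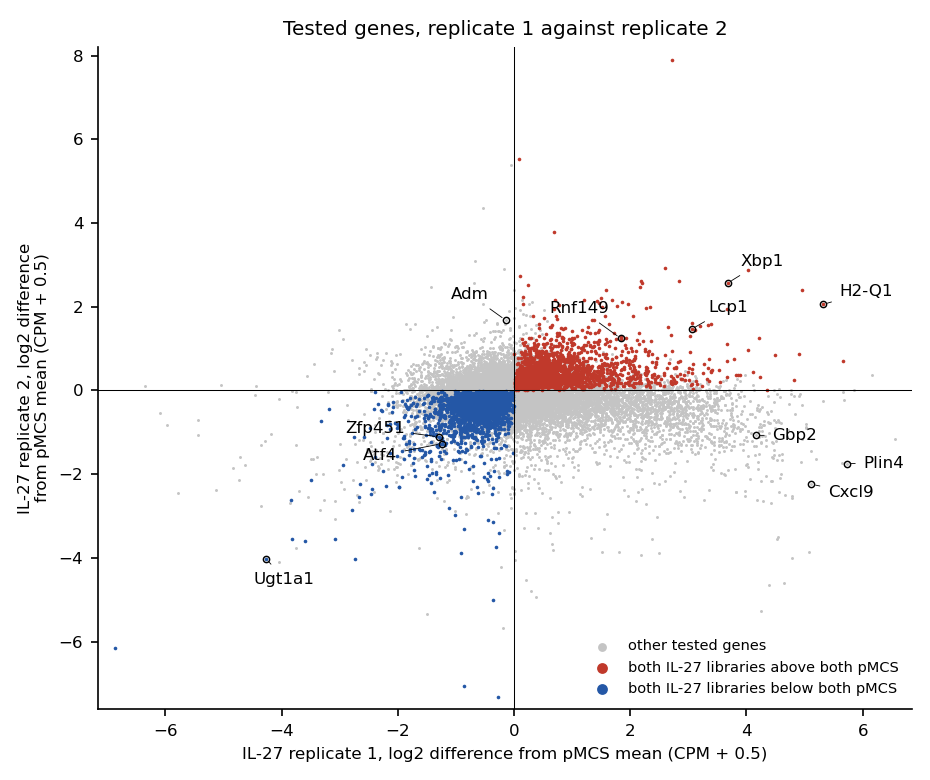
Each point is 1 of 20417 tested genes, placed by the log2 difference of IL-27 replicate 1 (x axis) and of replicate 2 (y axis) from the mean of the pMCS libraries, with 0.5 CPM added to each level. Genes with both IL-27 libraries above (2183, red) or below (2366, blue) both pMCS libraries fill opposite corners, and the grey field is widest along the x axis, where Gbp2, Cxcl9 and Plin4 lie high in replicate 1 and below 0 in replicate 2.

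No gene passed an adjusted p of 0.05 in edgeR's quasi-likelihood test, and the smallest adjusted p was 1. At an unadjusted p under 0.05, 744 genes were higher (3.64% of those tested) and 188 lower (0.921%), together 4.56%. With a change of at least 2-fold added, the threshold of the study's methods, 702 genes were higher (3.44%) and 160 lower (0.784%). Of these, 312 of the 702 higher genes (44.4%) and 138 of the 160 lower genes (86.2%) had both IL-27 libraries beyond both pMCS libraries. The higher count rested largely on 1 library. Without IL-27 replicate 1 it was 153 genes, of which 82 were among the 702, and without replicate 2 it was 1956, of which 640 were among them. Without pMCS replicate 1 it was 254. The lower count was 350 without IL-27 replicate 1, 762 without replicate 2, 86 without pMCS replicate 1 and 323 without pMCS replicate 2. edgeR's exact test also called 0 genes after adjustment, while DESeq2 called 22 higher and 7 lower, 21 of the 29 with both IL-27 libraries beyond both pMCS libraries. With the filter on low counts and all 12 libraries, both edgeR tests therefore left every difference described here short of adjustment over all genes. Without that filter the quasi-likelihood test called 716 genes higher and 101 lower after adjustment. Of these, 806 were among the 20417 tested genes, and only 165 had both IL-27 libraries beyond both pMCS libraries. Of the 119 named genes, 13 had a DESeq2 adjusted p under 0.05, among them Ugt1a1, H2-Q1, Rnf149, Zfp451, Lcp1, Cd244a, Insr and Il1b. Of 76 named genes with an unadjusted p under 0.05 in edgeR, 28 kept it and their direction without IL-27 replicate 1, 73 without replicate 2, 38 without pMCS replicate 1 and 47 without pMCS replicate 2. Each p is the unadjusted p of edgeR's quasi-likelihood test unless another tool is named.

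The axis of IL-27 itself held 25 tested genes of 26 listed, and 2 of them (8.0%, against 10.7% of all tested genes) had both IL-27 libraries above both pMCS libraries. The plasmid was placed in muscle, and the levels of Il27 and Ebi3 in tumor RNA are no check of its delivery. Plasmid and endogenous transcripts cannot be told apart in these counts. Il27, the p28 subunit, read 0.26 and 0 CPM in pMCS and 1.18 and 0.0928 CPM in IL-27. Ebi3 read 0.544 and 1.56 CPM in pMCS against 13.2 and 0.928 CPM in IL-27. In both subunit genes replicate 1 was the highest of the 4 libraries and replicate 2 lay between or near the pMCS levels.

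The receptor and its kinases followed the same split. Il27ra, the specific receptor chain, read 2.18 and 4.41 CPM in pMCS and 12.7 and 2.60 CPM in IL-27. Il6st, which encodes gp130, read 77.1 and 88.4 CPM in pMCS and 173 and 44.9 CPM in IL-27, so that replicate 1 was above and replicate 2 below both pMCS libraries. Jak1, Jak2 and Tyk2, the kinases bound to these chains, read 161, 71.3 and 52.9 CPM in IL-27 replicate 1, above both pMCS libraries for each. In replicate 2 they read 77.6, 31.0 and 20.9 CPM, against 62.4 and 100.2 CPM for Jak1, 34.5 and 31.9 CPM for Jak2 and 25.7 and 19.6 CPM for Tyk2 in pMCS.

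Stat3 and Il10 were the 2 members with both libraries above. Stat3 read 58.1 and 72.2 CPM in pMCS and 120 and 80.6 CPM in IL-27, both above pMCS, by a log2 fold change of 0.62 ± 0.348 SE (unadjusted p = 0.106, edgeR). Il10, the regulatory cytokine downstream of STAT3, was the other member with both libraries above, at 2.997 and 0.984 CPM against 0.189 and 0.657 CPM (log2 fold change 2.22 ± 0.882, unadjusted p = 0.0319 in edgeR, and 0.233 without replicate 1). In the 8 other treated libraries Il10 read 0.289 to 1.23 CPM and Stat3 52.9 to 131 CPM. Socs3, a feedback inhibitor induced by STAT3, read 41.0 and 53.3 CPM in pMCS and 82.4 and 51.3 CPM in IL-27, with overlapping groups.

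The type 1 effector genes of the axis were high in replicate 1 alone. Tbx21, which encodes T-bet, read 0.189 and 0.398 CPM in pMCS against 4.57 and 0 CPM in IL-27. Ifng read 0.189 and 0.0691 CPM against 2.27 and 0.149 CPM. Il12rb2, the IL-12 receptor chain that marks this program, was at 0 in both pMCS libraries and in IL-27 replicate 2 and read 2.71 CPM in replicate 1. Gzmb, the cytotoxic protease granzyme B, read 3.08 and 5.46 CPM in pMCS and 54.4 and 4.47 CPM in IL-27. Cxcl9, which attracts activated T cells, showed the widest split of the list, with 7.97 and 6.81 CPM in pMCS and 274 and 1.17 CPM in IL-27. Its replicate 2 lay below both pMCS libraries and below the range of the 8 other treated libraries, 4.44 to 46.8 CPM. Cxcl10 read 43.3 and 40.6 CPM in pMCS against 180 and 24.2 CPM. Cd274, the checkpoint ligand PD-L1, read 8.85 and 7.09 CPM in pMCS and 76.7 and 8.28 CPM in IL-27, so that replicate 2 lay between the pMCS libraries. Prdm1, which encodes Blimp-1, was an exception within the axis, with 11.2 and 9.47 CPM in pMCS, 8.63 CPM in replicate 1 and 21.3 CPM in replicate 2. In all, 7 members were higher with an unadjusted p under 0.05, 0 were lower, and the list median went from 1.21 to -0.11 on the log2 scale without replicate 1.

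The genes that interferon-γ induces gave the clearest example of libraries parting in opposite directions. Of 16 interferon-γ GTPases, which attack the vacuoles of pathogens, 15 were higher at an unadjusted p under 0.05 (edgeR), yet none had both IL-27 libraries above both pMCS libraries. Replicate 1 was above and replicate 2 below pMCS for 14 of the 16 (87.5%, against 12.2% of all tested genes). Their summed level was 105 and 115 CPM in pMCS, 1836 CPM in replicate 1 and 50.5 CPM in replicate 2, where the 8 other treated libraries held 72.4 to 276 CPM. Gbp2 read 17.8 and 20.0 CPM in pMCS and 346 and 8.71 CPM in IL-27 (log2 fold change 3.23 ± 1.19, unadjusted p = 0.0227 in edgeR). Igtp, an immunity-related GTPase, read 12.4 and 10.4 CPM against 162 and 6.27 CPM. For both genes the log2 fold change without replicate 1 was below 0, at -1.10 and -0.84.

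The promoters of these 2 genes are shown because they carry the letters that interferon factors read. The interferon-stimulated response element was searched as GAAA, any 2 bases and GAAA, on both strands, in windows of RefSeq genes that run from 250 bases before to 50 bases after the gene start (GRCm38.p6). It was present for 9 of 10 GTPases with a window and for 11 of 21 interferon-stimulated antiviral genes (52.4%), against 3.99% of 27025 symbols with a window. The gamma-activated site TTCNNNGAA, which is its own reverse complement, was present for 6 of the 10 GTPases and 9.55% of all symbols. Capitals mark the response element, which begins at position -59 of Gbp2 and -34 of Igtp, counted from the gene start. The Gbp2 window is chr3:142620413-142620712 on the plus strand, and the Igtp window is chr11:58199306-58199605 on the plus strand.
Gbp2: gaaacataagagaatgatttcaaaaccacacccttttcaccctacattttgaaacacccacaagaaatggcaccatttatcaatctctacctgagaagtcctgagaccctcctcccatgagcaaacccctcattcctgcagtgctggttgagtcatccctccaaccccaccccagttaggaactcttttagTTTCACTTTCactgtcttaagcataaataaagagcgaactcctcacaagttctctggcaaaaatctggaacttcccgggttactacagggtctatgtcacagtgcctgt
Igtp: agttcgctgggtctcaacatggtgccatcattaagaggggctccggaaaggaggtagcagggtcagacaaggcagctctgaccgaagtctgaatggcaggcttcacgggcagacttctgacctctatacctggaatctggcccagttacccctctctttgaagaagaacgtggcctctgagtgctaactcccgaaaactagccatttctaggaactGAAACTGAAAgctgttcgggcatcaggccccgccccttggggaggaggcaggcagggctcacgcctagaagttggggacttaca

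The response element was present in 3.59% of 1392 symbols with both IL-27 libraries above pMCS and in 3.62% of 1518 with both below, shares close to that of all symbols. Neither set held any of the tested GTPases or antiviral genes. Genes with the IL-27 libraries on opposite sides of pMCS were not searched as a set. These shares therefore cannot show whether the element goes with direction.

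The wider interferon program and antigen presentation followed the GTPases. Of 28 interferon-stimulated antiviral genes, 7 were higher at an unadjusted p under 0.05, 23 (82.1%) had replicate 1 above and replicate 2 below pMCS, and none had both libraries above. Mx1, which blocks virus replication, read 2.34 and 2.20 CPM in pMCS and 37.1 and 0.965 CPM in IL-27. Of 19 genes for MHC class I presentation, 8 were higher at an unadjusted p under 0.05 and 13 were on opposite sides in the same order. H2-K1, a classical class I heavy chain, read 63.3 and 100.6 CPM against 772 and 56.3 CPM. The class I-like gene H2-T23 was the member of this list with both libraries above, at 280.5 and 63.1 CPM against 47.1 and 56.7 CPM, and its lower library was 1.11 times the higher pMCS library. Of 12 class II genes, 9 were higher at an unadjusted p under 0.05, with H2-Aa at 29.6 and 53.6 CPM in pMCS and 956 and 24.5 CPM in IL-27. Cd80, a co-stimulatory ligand, had both libraries above, at 18.5 and 2.02 CPM against 1.14 and 1.45 CPM, with a p of 0.241 without replicate 1.

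**Figure D2:**
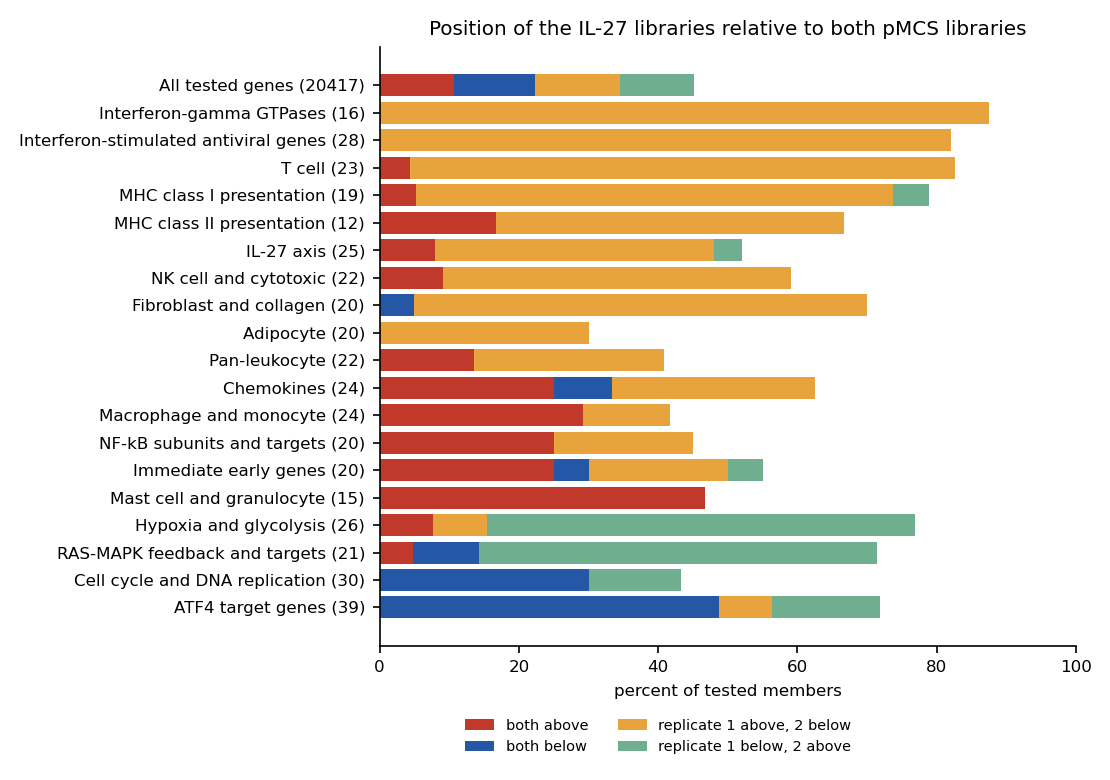
Bars give, for 19 gene lists with the number of tested members in parentheses and for all 20417 tested genes, the percent of members by the position of the IL-27 libraries relative to both pMCS libraries. Among interferon-γ GTPases 87.5% have replicate 1 above and replicate 2 below, among hypoxia and glycolysis genes 61.5% have the reverse, and among ATF4 target genes 48.7% have both libraries below. The ATF4 list was drawn up after values of Atf4 and several stress genes were seen, so that its bar is a description.

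Marker levels of other cell types moved with these genes. The summed level of 20 adipocyte markers was 122 and 1380 CPM in pMCS and 13890 and 124 CPM in IL-27, with 116 to 479 CPM in the 8 other treated libraries, so that IL-27 replicate 1 and, at a lower level, pMCS replicate 2 stood apart. None of the 20 had both IL-27 libraries beyond both pMCS libraries. Plin4, a coat protein of fat droplets, read 1.87 and 16.2 CPM in pMCS and 505 and 2.34 CPM in IL-27, and Lpl, the lipase that takes up blood fat, read 27.6 and 109 CPM against 1390 and 16.1 CPM. The summed level of 22 pan-leukocyte markers was 390 and 474 CPM in pMCS and 2384 and 487 CPM in IL-27. That of 23 T cell markers was 64.6 and 95.0 CPM against 431 and 54.5 CPM, and 18 of the 23 had replicate 1 above and replicate 2 below pMCS. Fibroblast markers, 20 in number, split the same way for 13, with Col3a1 at 1104 and 2082 CPM in pMCS and 4773 and 980 CPM in IL-27. The part of adipocyte, leukocyte and stromal RNA in the differences of replicate 1 was not tested. With mean levels of the adipocyte and pan-leukocyte lists as covariates, the genes past 2-fold with an unadjusted p under 0.05 numbered 157 higher and 356 lower.

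The labelled tissue was checked against 16 tested tumor epithelium markers, of which 0 had both IL-27 libraries beyond both pMCS libraries, and their summed level was 2459 and 2806 CPM in pMCS and 1925 and 3186 CPM in IL-27. The summed level of 23 hepatocyte markers was 462 and 577 CPM in pMCS and 2431 and 470.5 CPM in IL-27. Mitochondrial 16S rRNA, mt-Rnr2, was 17505 and 854 raw CPM in pMCS and 561 and 1519 raw CPM in IL-27, so that pMCS replicate 1 stood apart in this transcript.

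**Figure D3:**
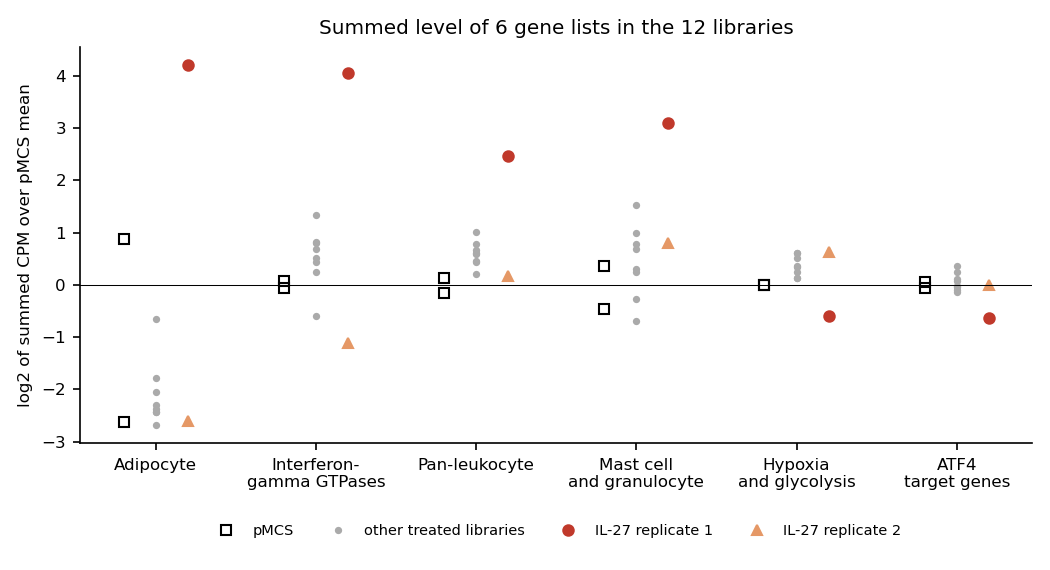
Points give the log2 of the summed CPM of 6 gene lists over the mean of the pMCS libraries in each of the 12 libraries, pMCS as open squares, IL-27 replicate 1 as circles, replicate 2 as triangles and the 8 other treated libraries as dots. IL-27 replicate 1 lies above all others for adipocyte (13890 CPM), interferon-γ GTPase (1836 CPM) and pan-leukocyte (2384 CPM) genes and below all others for hypoxia and glycolysis (7401 CPM) and ATF4 target genes (3519 CPM).

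Against this background, some genes were higher in both IL-27 libraries by wide margins. Among the 2183 genes, 312 had a gap of at least 2-fold between the lower IL-27 and the higher pMCS library, while the median gap was 1.15-fold and replicate 1 was the higher of the IL-27 libraries for 68.8%. In 34 genes the unadjusted p stayed under 0.05 in edgeR without each of the 4 libraries in turn. The 8 genes with the smallest p were Rnf149, Lcp1, Fam222b, Insr, Cd244a, Stim1, Cd300lf and Rnf19b, and all but Cd300lf were among the 34. For each of these 8 genes, all 8 other treated libraries also lay above both pMCS libraries. Their low level in pMCS was therefore not particular to the comparison with IL-27.

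Rnf149 and Rnf19b encode RING-type ubiquitin ligases, and RNF19B takes part in the killing function of NK cells. Rnf149 read 14.8 and 16.7 CPM in pMCS and 57.3 and 37.9 CPM in IL-27, a log2 fold change of 1.60 ± 0.315 (unadjusted p = 0.000577, edgeR). It did not overlap between the groups and read 32.5 to 54.5 CPM in the 8 other treated libraries. Without replicate 1 the log2 fold change was 1.29 (unadjusted p = 0.00461, edgeR). Rnf19b read 18.4 and 33.6 CPM in pMCS and 114 and 60.9 CPM in IL-27 (log2 fold change 1.75 ± 0.452, unadjusted p = 0.00349, edgeR).

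Of 22 pan-leukocyte genes 3 (13.6%, against 10.7% of all tested genes) had both IL-27 libraries above and 6 had replicate 1 above and replicate 2 below pMCS. Lcp1, 1 of the 3, the actin-bundling protein L-plastin of leukocytes, read 21.5 and 29.7 CPM in pMCS and 217 and 71.7 CPM in IL-27 (log2 fold change 2.50 ± 0.546, unadjusted p = 0.00119, edgeR). The groups did not overlap, and without replicate 1 the log2 fold change was 1.502. Cd244a, the receptor 2B4 of NK and CD8 T cells, read 1.61 and 2.66 CPM against 8.88 and 5.90 CPM, and both IL-27 libraries lay above the highest of the 10 others, 5.86 CPM. Cd300lf, an inhibitory receptor of myeloid cells, read 0.852 and 1.49 CPM against 26.7 and 2.77 CPM, and its p was 0.0646 without replicate 1. Stim1, the sensor of calcium stores that opens the calcium channels of lymphocytes, read 2.48 and 5.41 CPM against 38.2 and 11.7 CPM.

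Insr, the insulin receptor, read 6.197 and 7.28 CPM in pMCS and 31.6 and 18.1 CPM in IL-27, a log2 fold change of 1.88 ± 0.446 (unadjusted p = 0.002, edgeR). Of the 22 other tested genes of insulin signaling, 0 were higher and 1 was lower with an unadjusted p below 0.05. Both IL-27 libraries were above pMCS for 1 and below for 6, beside 10.7% and 11.6% of all tested genes. Irs1, the docking protein that the insulin receptor phosphorylates, was lower at 4.07 and 11.3 CPM against 23.5 and 17.2 CPM (log2 fold change -1.40 ± 0.557, unadjusted p = 0.0316, edgeR, and 0.175 without replicate 1). Fam222b read 4.71 and 3.70 CPM in pMCS and 12.8 and 21.2 CPM in IL-27 and was 1 of the genes with the higher level in replicate 2.

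**Figure D4:**
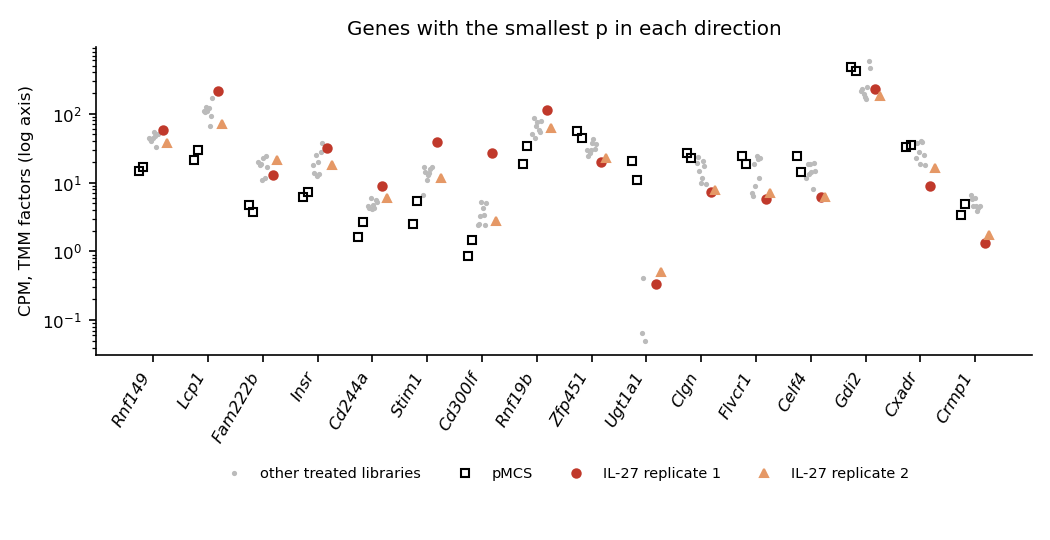
Levels in CPM on a log axis of the 8 genes with the smallest p in each direction, with pMCS as open squares, IL-27 replicate 1 as circles, replicate 2 as triangles and the 8 other treated libraries as grey dots, where a level of 0 is not drawn. For Rnf149 the IL-27 libraries read 57.3 and 37.9 CPM above pMCS at 14.8 and 16.7 CPM, and for Zfp451 they read 20.0 and 22.8 CPM below pMCS at 55.8 and 43.6 CPM.

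The widest gaps belonged to genes that were low in pMCS. H2-Q1, a non-classical MHC class I gene, had 0 counts in both pMCS libraries and read 19.4 and 1.58 CPM in IL-27. Against 3 counts per library its mean level was at least 195-fold higher, and its lower library at least 26.5-fold higher. The Qa genes are near-identical copies, so the division of reads among them is uncertain, and H2-Q1 read 0 to 3.12 CPM in the 8 other treated libraries. Zfp260, Mfsd9, Atp2b4, Zfx, Samd8 and Mfsd4a had gaps of 8.09, 7.27, 6.87, 5.09, 5.04 and 4.51-fold. Their p did not follow the gap, since Zfx read 3.87 to 56.4 CPM in the 8 other treated libraries and Zfp260 read 0.275 to 31.6 CPM. Zfx, an X-linked transcription factor, read 6.77 and 3.77 CPM in pMCS and 34.4 and 43.7 CPM in IL-27 (unadjusted p = 0.0665, edgeR), and Atp2b4, a calcium pump of the plasma membrane, read 1.04 and 0.864 CPM against 44.8 and 7.15 CPM (unadjusted p = 0.0217, edgeR, and 0.111 without replicate 1). An entry of Zc3h11a that shares its symbol with another entry was also named by the gap rule, with 0 counts in pMCS and 0.0357 and 0.186 CPM in IL-27, which is at or under 3 counts in replicate 1.

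Other genes past an unadjusted p of 0.05 without each library in turn, chosen here after their values were seen, included 4 with known roles in signaling or RNA biology. Ikbke, a kinase upstream of interferon and NF-κB responses, read 2.34 and 3.25 CPM in pMCS and 32.8 and 9.24 CPM in IL-27 (log2 fold change 2.91 ± 0.771, unadjusted p = 0.00402, edgeR). Tent5c, a poly(A) polymerase of plasma cells, read 0.71 and 0.968 CPM against 5.76 and 2.52 CPM. Fst, the activin antagonist follistatin, read 4.87 and 7.85 CPM against 24.3 and 12.6 CPM. Ptms, the nuclear protein parathymosin, had the IL-27 libraries closest to each other of these 4, with 109.5 and 113 CPM in pMCS and 291 and 249 CPM in IL-27. Of the 8 other treated libraries, all 8 lay above both pMCS libraries for Ikbke and Tent5c, and 6 for Fst and Ptms.

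Members with both libraries above pMCS were found in the macrophage and granulocyte lists but not among 17 dendritic cell genes. Of these 17, 0 had both above (10.7% of all tested genes) and 7 (41.2%, against 12.2%) had replicate 1 above and replicate 2 below. Of 24 macrophage and monocyte genes, 7 (29.2%, against 10.7% of all tested genes) had both IL-27 libraries above and 15 were higher at an unadjusted p under 0.05. Replicate 1 was above both pMCS libraries for all 24, so that the 7 are those of replicate 2. Their share was near the 26.5% of all tested genes that lay above in replicate 2. Arg1, the arginase of suppressive macrophages, read 40.5 and 53.2 CPM in pMCS and 117 and 99.1 CPM in IL-27, with groups apart but a p of 0.116 (edgeR). Chil3, a chitinase-like protein of alternatively activated macrophages, read 0.71 and 1.16 CPM against 12.7 and 3.69 CPM (log2 fold change 3.12 ± 1.22, unadjusted p = 0.0297, edgeR, and 0.148 without replicate 1). Itgam, the integrin CD11b, read 7.76 and 15.8 CPM against 102 and 17.1 CPM, and Cd14, the co-receptor for lipopolysaccharide, 20.8 and 24.8 CPM against 43.3 and 32.2 CPM, and without replicate 1 their p was 0.429 and 0.202. The summed level of the 24 genes was 675 and 1247 CPM in pMCS, 5980 CPM in replicate 1 and 947 CPM in replicate 2, so that replicate 2 lay between the pMCS libraries.

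Of 15 tested mast cell and granulocyte genes, 7 (46.7%, against 10.7% of all tested genes) had both libraries above pMCS, 0 had both below and 3 were higher at an unadjusted p under 0.05. Replicate 1 was above both pMCS libraries for all 15, so that the 7 are those of replicate 2, beside 26.5% of all tested genes for that library. The summed level was 13.2 and 23.2 CPM in pMCS and 156 and 31.5 CPM in IL-27, and 11.2 to 52.5 CPM in the 8 other treated libraries. Csf3r, the receptor for granulocyte colony-stimulating factor, read 0.946 and 1.18 CPM against 28.8 and 1.45 CPM (log2 fold change 3.83 ± 1.17, unadjusted p = 0.00922, edgeR). Without replicate 1 its log2 fold change was 0.46 (unadjusted p = 0.558, edgeR). S100a8 and S100a9, which form the neutrophil protein calprotectin, were higher in replicate 2 than in replicate 1. S100a9 read 4.05 and 1.43 CPM in pMCS and 5.01 and 12.9 CPM in IL-27, and S100a8 read 2.70 and 1.02 CPM against 3.21 and 6.42 CPM, with p of 0.128 and 0.212 (edgeR). The list median was 2.42, and 0.46 without replicate 1, on the log2 scale.

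Chemokines that attract neutrophils were among the genes with both libraries above. Of 24 chemokines, 6 (25.0%, against 10.7% of all tested genes) had both IL-27 libraries above pMCS and 2 (8.33%, against 11.6%) had both below. Replicate 1 was above both pMCS libraries for 21 of the 24, against 38.5% of all tested genes. Replicate 2 was above for 6, a share near its 26.5% of all tested genes, and below for 9. Cxcl2, a ligand of the neutrophil receptor CXCR2, read 1.63 and 1.18 CPM in pMCS and 4.76 and 7.57 CPM in IL-27, a log2 fold change of 2.13 ± 0.634 (unadjusted p = 0.00775, edgeR). It was 1 of the 34 genes that kept p under 0.05 without each library. Cxcl5, another ligand of CXCR2, read 0.449 and 0.138 CPM against 2.84 and 0.835 CPM (unadjusted p = 0.019, edgeR, and 0.143 without replicate 1), and Ccl3, a chemokine of macrophages, 1.58 and 1.28 CPM against 6.05 and 2.86 CPM (unadjusted p = 0.0361, edgeR, and 0.19 without replicate 1). On the other side Ccl21a, which guides T cells and dendritic cells through CCR7, read 1.51 and 15.7 CPM in pMCS and 0.143 and 0.278 CPM in IL-27 (unadjusted p = 0.0247, edgeR, and 0.167 without pMCS replicate 2). Ccl21a has near-identical copies, among which reads may be divided, and its pMCS libraries differed widely. Cx3cl1, the membrane-bound chemokine fractalkine, read 60.6 and 71.0 CPM against 43.1 and 44.3 CPM (unadjusted p = 0.0663, edgeR).

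NF-κB targets and early response genes also held more members above than below. Of 20 NF-κB genes 5 (25.0%, against 10.7% of all tested genes) had both libraries above and 0 below (11.6% of all). Replicate 1 was above both pMCS libraries for 17 of the 20 and replicate 2 for 8, beside 38.5% and 26.5% of all tested genes. Il1b, the inflammatory cytokine interleukin-1β, read 3.33 and 5.03 CPM in pMCS and 59.1 and 7.07 CPM in IL-27 (log2 fold change 2.98 ± 0.785, unadjusted p = 0.00388, edgeR, and 0.0988 without replicate 1). Tnfaip3, the NF-κB inhibitor A20, read 0.71 and 5.72 CPM against 16.4 and 22.3 CPM (unadjusted p = 0.12, edgeR). Of 20 immediate early genes, 5 (25.0%) had both libraries above and 1 below, with Dusp1, a phosphatase that ends MAP kinase signals, at 57.9 and 32.8 CPM against 21.5 and 24.6 CPM (unadjusted p = 0.0283, edgeR). Egr2 read 9.86 and 7.11 CPM against 3.29 and 2.54 CPM (unadjusted p = 0.0342, edgeR). Over the 20 immediate early genes replicate 1 was above both pMCS libraries for 12 and replicate 2 for 9. Of 18 TGF-β ligands and targets, a separate list, 2 (11.1%, against 10.7% of all tested genes) had both libraries above. In that list 1 (5.56%, against 11.6%) had both below, 4 had replicate 1 above and replicate 2 below, and 2 the reverse. Tgfbi, a matrix protein induced by TGF-β, read 90.1 and 130 CPM in pMCS and 452 and 179 CPM in IL-27 (log2 fold change 1.52 ± 0.422, unadjusted p = 0.00535, edgeR), and Tgfb1 itself 66.2 and 86.6 CPM against 119 and 108 CPM (unadjusted p = 0.0407, edgeR). All 8 other treated libraries also lay above both pMCS libraries for Tgfbi and Tgfb1. Without replicate 1 the p of Dusp1, Egr2, Tgfbi and Tgfb1 was 0.232, 0.102, 0.0722 and 0.125, and the log2 fold change of Tgfbi was 0.71.

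Of 22 NK cell and cytotoxic genes 10 were higher at an unadjusted p under 0.05, 2 had both libraries above, and 11 had replicate 1 above and replicate 2 below pMCS. Gzma, the protease granzyme A, was 1 of the 2 with Cd244a, at 37.8 and 0.743 CPM against 0.189 and 0.328 CPM (log2 fold change 6.196 ± 1.84, unadjusted p = 0.00782, edgeR, and 0.264 without replicate 1). Of 17 checkpoint genes, Cd244a and Pdcd1lg2 had both libraries above (11.8%, against 10.7% of all tested genes). In 6 (35.3%, against 12.2%) replicate 1 was above and replicate 2 below. Pdcd1lg2, which encodes PD-L2, read 0.733 and 0.864 CPM against 12.6 and 1.37 CPM, with a p of 0.242 without replicate 1.

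The share of calls at 2-fold with both libraries beyond pMCS was 86.2% for lower and 44.4% for higher genes. These shares cannot be compared as measures of agreement between libraries. A mean of 2 libraries can pass 2-fold upward through 1 high library. Downward, 1 library at 0 gives 2-fold at most if the other equals pMCS. Among the 2366 genes with both IL-27 libraries below, 235 had a gap of at least 2-fold, the median gap was 1.13-fold, and 27 kept an unadjusted p under 0.05 without each library in turn. The 8 with the smallest p were Zfp451, Ugt1a1, Clgn, Flvcr1, Celf4, Gdi2, Cxadr and Crmp1, and all but Crmp1 were among the 27.

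Zfp451, a SUMO ligase that acts in DNA repair and TGF-β signaling, read 55.8 and 43.6 CPM in pMCS and 20.0 and 22.8 CPM in IL-27, a log2 fold change of -1.22 ± 0.272 (unadjusted p = 0.00136, edgeR). Both IL-27 libraries lay below all 10 others, which for the 8 treated ranged from 24.5 to 43.5 CPM. Without replicate 1 the log2 fold change was -1.10. Clgn, a chaperone of the endoplasmic reticulum known from the testis, read 27.1 and 22.7 CPM against 7.19 and 7.85 CPM, and Flvcr1, a choline and heme transporter, 24.4 and 18.4 CPM against 5.74 and 6.98 CPM. Gdi2, which recycles Rab proteins, was the most abundant of the 8, at 470 and 411 CPM in pMCS and 225 and 182 CPM in IL-27 (log2 fold change -1.11 ± 0.294, unadjusted p = 0.00395, edgeR). Cxadr, a tight junction protein that serves as the receptor of coxsackieviruses and adenoviruses, read 33.2 and 35.7 CPM against 8.92 and 16.0 CPM (unadjusted p = 0.00429, edgeR). Celf4, an RNA-binding protein of neurons, read 24.6 and 14.2 CPM against 6.15 and 6.09 CPM. Crmp1, a protein of axon guidance, read 3.33 and 4.80 CPM against 1.30 and 1.71 CPM, below the 8 other treated libraries at 3.91 to 6.64 CPM, and its p was 0.0566 without pMCS replicate 2.

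Ugt1a1, which conjugates bilirubin in the liver, had the widest gap, 21.9-fold, at 20.4 and 10.99 CPM in pMCS and 0.339 and 0.501 CPM in IL-27 (log2 fold change -5.22 ± 1.15, unadjusted p = 0.00229, edgeR). It read 0 to 0.412 CPM in the 8 other treated libraries, so that both pMCS libraries stood above all 10 others. The UGT1A genes share their last exons, and the entry to which their reads were assigned is uncertain. The same holds for Pcdhga12, whose locus shares exons among many protocadherins and which read 3.78 and 249 CPM in pMCS and 0.589 and 1.28 CPM in IL-27, with a p of 0.216 without pMCS replicate 2. Zbtb42, a repressor with zinc fingers, read 10.97 and 11.7 CPM against 0.892 and 0.52 CPM, and 0.215 to 13.5 CPM in the 8 other treated libraries. Dnajb4, a heat shock co-chaperone, read 37.1 and 33.2 CPM against 12.04 and 9.73 CPM (unadjusted p = 0.00716, edgeR), below all 10 other libraries. Usp20, a deubiquitinase, read 39.4 and 38.1 CPM against 14.3 and 9.45 CPM, with a p of 0.106 (edgeR).

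Both IL-27 libraries lay above all 10 other libraries of the series for 196 genes (0.96%) and below all 10 for 149 (0.73%). Apart from Cd244a, Zfp451, Clgn, Celf4, Cxadr, Crmp1 and Dnajb4, genes of this kind chosen after their values were seen included Slc6a8, the creatine transporter, at 31.6 and 44.0 CPM against 133 and 110 CPM in pMCS and 51.8 to 135 CPM in the 8 others (unadjusted p = 0.0111, edgeR, and 0.0623 without replicate 1). Ash2l, a core subunit of the enzymes that methylate lysine 4 of histone H3, read 69.4 and 86.7 CPM against 121 and 129 CPM in pMCS and 120 to 163 CPM in the 8 others, and its p was 0.124 without replicate 1. Among the higher genes Fxyd2, a regulator of the sodium pump, read 7.96 and 3.75 CPM against 1.21 and 2.005 CPM in pMCS and 1.77 to 3.40 CPM in the 8 others (unadjusted p = 0.00425, edgeR).

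The factor ATF4 and its target genes were examined after some of their values had been seen, so that their counts are a description. ATF4 is translated when amino acids run short or the endoplasmic reticulum is stressed, and turns on amino acid transporters, amino acid synthesis and aminoacyl-tRNA synthetases. Atf4 read 635 and 550 CPM in pMCS and 249 and 245 CPM in IL-27, a log2 fold change of -1.26 ± 0.428 (unadjusted p = 0.0156, edgeR, 0.048 without replicate 1 and 0.0564 without pMCS replicate 1). The 2 IL-27 libraries were close to each other and apart from pMCS, but the 8 other treated libraries ranged from 183 to 946 CPM. Of 39 ATF4 target genes, a list drawn up after the values of Atf4 and several stress genes were seen, 19 (48.7%, against 11.6% of all tested genes) had both IL-27 libraries below both pMCS libraries, 0 had both above, and 3 were lower at an unadjusted p under 0.05. The summed level of the 39 genes was 5279 and 5679 CPM in pMCS, 3519 CPM in replicate 1 and 5469 CPM in replicate 2. By this sum replicate 2 lay between the pMCS libraries. The list median was -0.37 on the log2 scale, -0.15 without replicate 1 and -0.082 with the adipocyte and leukocyte covariates, beside 0.0011 over all tested genes.

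The 3 were an importer of cationic amino acids, a cystine importer and an enzyme of proline synthesis. Slc7a3 read 7.73 and 5.08 CPM in pMCS and 1.59 and 2.12 CPM in IL-27 (log2 fold change -1.79 ± 0.602, unadjusted p = 0.0149, edgeR). Slc7a11, which imports cystine for glutathione, read 27.2 and 24.4 CPM against 11.5 and 13.0 CPM (log2 fold change -1.08 ± 0.388, unadjusted p = 0.0207, edgeR). Pycr1, the last enzyme of proline synthesis, read 35.6 and 36.9 CPM against 14.9 and 20.3 CPM (unadjusted p = 0.0293, edgeR). All 3 had a p above 0.05 without replicate 1, at 0.0676, 0.086 and 0.145. Over the 39 genes, replicate 1 was below both pMCS libraries for 30 and replicate 2 for 23. Asns, asparagine synthetase, read 183 CPM in both pMCS libraries and 81.3 and 162 CPM in IL-27, Trib3, a pseudokinase that restrains ATF4, 64.9 and 45.2 CPM against 14.8 and 42.2 CPM, and Chac1, which degrades glutathione, 14.7 and 13.5 CPM against 6.40 and 10.01 CPM. None of these had an unadjusted p under 0.05.

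Windows of 3 target genes with the element that ATF4 binds together with C/EBP factors are shown, to place the element beside the values of these genes. Searched as TGATGNAA on both strands, it was present for 12 of 30 target genes with a window (40.0%), against 4.51% of 27025 symbols, 3.75% of 1518 symbols with both IL-27 libraries below pMCS and 2.66% of 1392 with both above. Both IL-27 libraries were below pMCS for 6 of the 12 targets with the element and for 9 of the 18 without it. Capitals mark it, at -66 and -47 of Slc7a11, -103 of Pycr1 and -23 of Asns from the gene start. The windows, from RefSeq on GRCm38.p6, are chr3:50443564-50443863 for Slc7a11, chr11:120643699-120643998 for Pycr1 and chr6:7693160-7693459 for Asns, each read on the minus strand.
Slc7a11: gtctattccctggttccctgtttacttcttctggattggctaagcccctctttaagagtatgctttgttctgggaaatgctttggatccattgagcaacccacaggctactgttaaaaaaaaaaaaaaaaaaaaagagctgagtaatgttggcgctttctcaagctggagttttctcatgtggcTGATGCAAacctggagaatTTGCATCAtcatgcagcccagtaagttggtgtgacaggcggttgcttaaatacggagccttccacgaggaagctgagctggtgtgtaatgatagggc
Pycr1: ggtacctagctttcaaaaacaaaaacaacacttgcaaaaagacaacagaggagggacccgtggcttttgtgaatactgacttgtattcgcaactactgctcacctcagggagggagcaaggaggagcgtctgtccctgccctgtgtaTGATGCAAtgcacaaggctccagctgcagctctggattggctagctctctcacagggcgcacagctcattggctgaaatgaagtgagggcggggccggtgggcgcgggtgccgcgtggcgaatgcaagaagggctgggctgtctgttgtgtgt
Asns: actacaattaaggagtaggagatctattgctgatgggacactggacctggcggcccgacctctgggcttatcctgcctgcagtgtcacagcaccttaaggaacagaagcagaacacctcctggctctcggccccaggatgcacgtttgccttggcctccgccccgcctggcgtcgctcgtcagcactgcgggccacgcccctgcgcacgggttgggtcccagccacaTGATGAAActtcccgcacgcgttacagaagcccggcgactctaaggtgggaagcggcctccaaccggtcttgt

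**Figure D5:**
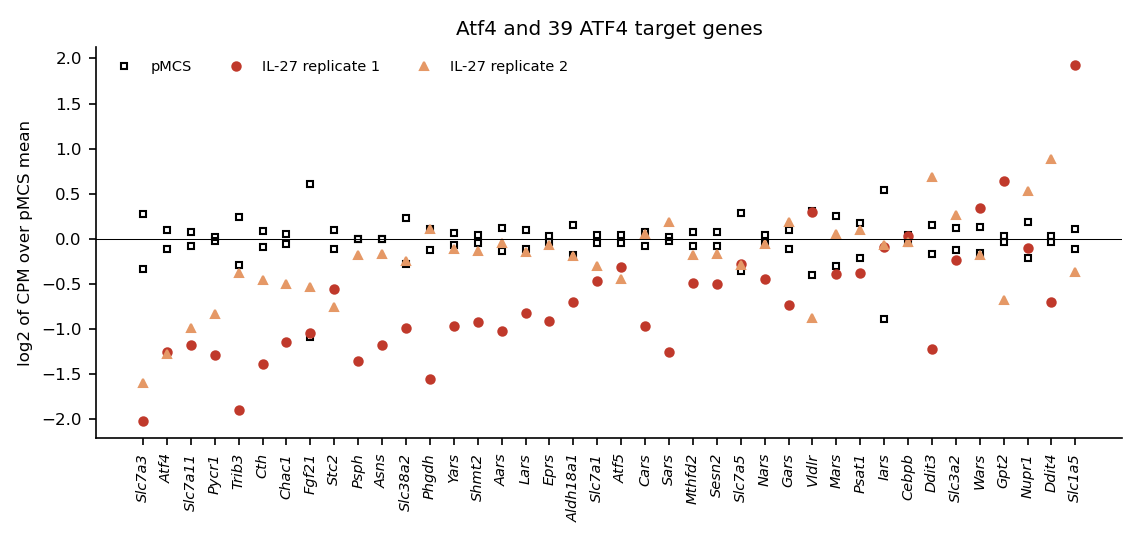
Points give the log2 of CPM over the pMCS mean for Atf4 and the 39 ATF4 target genes, ordered by log2 fold change, with pMCS as open squares, IL-27 replicate 1 as circles and replicate 2 as triangles. Atf4 is lower by a like amount in both libraries (249 and 245 CPM against 635 and 550 CPM), while for Asns replicate 1 lies far below and replicate 2 just below pMCS (81.3 and 162 CPM against 183 CPM).

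Xbp1, the factor of another arm of the unfolded protein response, differed in direction from Atf4. It read 7.36 and 17.6 CPM in pMCS and 166 and 76.7 CPM in IL-27, a log2 fold change of 3.28 ± 1.02 (unadjusted p = 0.00999, edgeR, and 0.0649 without pMCS replicate 1). The groups did not overlap, and the 8 other treated libraries read 8.68 to 99.9 CPM. Of the 18 tested genes of the stress response, 3 (16.7%, against 10.7% of all tested genes) had both IL-27 libraries above and 5 (27.8%, against 11.6%) below.

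Cell cycle genes held members with both libraries below and none above. Of 30 tested, 9 (30.0%, against 11.6% of all tested genes) had both IL-27 libraries below and 0 above, replicate 1 was below pMCS for 28 and replicate 2 for 9 (28.2% of all tested genes), and 1 was lower at an unadjusted p under 0.05. That gene, Bub1, a kinase of the spindle checkpoint, read 48.1 and 40.6 CPM in pMCS and 25.8 and 32.4 CPM in IL-27 (log2 fold change -0.61 ± 0.262, unadjusted p = 0.0444, edgeR, and 0.221 without replicate 1). Ccnb1, cyclin B1, read 74.8 and 78.2 CPM against 54.6 and 49.1 CPM (unadjusted p = 0.0519, edgeR), and both genes lay below all 10 other libraries. Mki67, the proliferation marker Ki-67, read 171 and 114 CPM against 92.9 and 113 CPM. The list median was -0.29 on the log2 scale, 0.0054 without replicate 1 and 0.088 with the adipocyte and leukocyte covariates.

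Hypoxia and glycolysis genes parted in the order opposite to that of the interferon genes. Of 26 tested entries, 16 (61.5%, against 10.6% of all tested genes) had replicate 1 below and replicate 2 above pMCS, and 2 had both above. The summed level was 11270 and 11260 CPM in pMCS, 7401 CPM in replicate 1 and 17470 CPM in replicate 2, beside 12380 to 17300 CPM in the 8 other treated libraries. Adm, the hypoxia-induced peptide adrenomedullin, read 23.8 and 23.2 CPM in pMCS, 21.1 CPM in replicate 1 and 76.5 CPM in replicate 2. Pfkp and Hk2, which catalyse early steps of glycolysis, were the members with both libraries above, Pfkp at 71.6 and 62.0 CPM against 30.6 and 41.8 CPM and Hk2 at 53.5 and 51.6 CPM against 33.9 and 35.5 CPM, with p of 0.13 and 0.192 (edgeR).

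Genes of RAS and MAP kinase signaling, the pathway in which H-ras acts, divided likewise. Of 21 tested, 12 (57.1%, against 10.6% of all tested genes) had replicate 1 below and replicate 2 above pMCS, 1 (4.76%, against 10.7%) had both above and 2 (9.52%, against 11.6%) had both below, and 0 had an unadjusted p under 0.05. Areg, the growth factor amphiregulin, read 26.8 and 28.5 CPM in pMCS, 16.0 CPM in replicate 1 and 69.7 CPM in replicate 2. Dusp5, a phosphatase that returns ERK to its inactive state, read 92.8 and 96.6 CPM in pMCS, 88.7 CPM in replicate 1 and 204 CPM in replicate 2. Etv5 and Spry1, a target and a feedback inhibitor of this pathway, were lower in both libraries, Etv5 at 42.9 and 43.9 CPM against 51.0 and 68.3 CPM and Spry1 at 19.6 and 19.8 CPM against 25.4 and 27.6 CPM, with p of 0.139 and 0.197 (edgeR).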

How the data were processed

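Poly(A) RNA of subcutaneous tumors was sequenced by the authors from stranded libraries, while the labels call it total RNA. Per the labels and methods the authors checked reads with FastQC 0.11.3, aligned them with HISAT2 and quantified them with StringTie, which can shift reads between overlapping entries. For the genome build, nothing is given in the sources used here. The deposited values are whole-number counts, taken as raw counts, and all 55450 identifiers were matched to GENCODE M21 for names and lengths.

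Counts were fitted in R 4.3.3 with edgeR 4.0.16 (filterByExpr, TMM, quasi-likelihood, 1 term per group over all 12 libraries, common dispersion 0.343), p-values being adjusted with the Benjamini-Hochberg method. Each standard error was derived from the fold change and its F statistic. The model was tested on simulated data. The members and lists were chosen with earlier results of these data known. Genes named were, in each direction, the 8 with the smallest p and the 8 with the widest gap between facing libraries (mean log2 CPM 1 or more, both IL-27 libraries beyond pMCS, no predicted, mitochondrially encoded or pseudogene entries), the IL-27 axis, and from each list up to 4 by p and up to 4 by p among those beyond pMCS. Other named genes were chosen after their values were seen. A member of the IL-27 axis is not reported here. Counting intervals were not needed, and a fold against 0 counts uses a floor of 3 counts per library, for counting error only. The ATF4 list and the crossed pairing were added after the data were seen. Alternatives were RLE scaling, no filter, both groups alone, a replicate block, adipocyte and leukocyte or length covariates, each library left out, edgeR's exact test and DESeq2 1.42.0.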

Additional observations from a re-analysis of the deposited data

How the results depend on the processing

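The count of genes higher at an unadjusted p under 0.05 and 2-fold, 702, became 1755 without the filter on low counts, 122 with pMCS and IL-27 fitted alone, 157 with adipocyte and leukocyte covariates, 309 with a length covariate and 1142 in DESeq2. It ranged from 153 to 1956 with each library left out. The lower count, 160, became 457 without the filter, 75 with both groups alone, 356 with the covariates and 248 in DESeq2, and ranged from 86 to 762 with each library left out. After adjustment 716 genes were higher and 101 lower without the filter, and 22 and 7 in DESeq2, with ranges of 0 to 409 and 0 to 23 over the libraries left out. Both higher bounds came without IL-27 replicate 2, where the lone IL-27 library is assumed to vary like the other groups. The cause of these shifts was not tested.

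Deviations of same-numbered pMCS and IL-27 libraries correlated at -0.27, which gave no ground for pairing these 2 groups by replicate number. Between the other groups of the series this correlation ranged from -0.22 to 0.31. Whether libraries of the same number share a batch was not tested. With the replicate block over all 12 libraries 383 genes were higher and 135 lower, beside 702 and 160 without it. The crossed replicate block, chosen after seeing the data, was fitted on the pMCS and IL-27 libraries alone. It gave 397 and 117, beside 122 and 75 for the same libraries without a block. Requiring a gap of 1.5-fold left 531 genes above and 426 below, and of 2-fold 312 and 235.

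Of 42 lists 33 had a median log2 fold change above 0, 21 with the covariates and 14 to 35 with each library left out, the lowest without IL-27 replicate 1. With the covariates the median turned to -0.25 for the IL-27 axis, -0.68 for antiviral genes, -1.10 for interferon-γ GTPases, -0.16 for cytokine receptors, -0.43 for Toll-like receptors, -1.37 for T cells, -0.33 for NK cells, -1.41 for B cells, -0.14 for dendritic cells, -0.46 for fibroblasts, -0.24 for smooth muscle and 0.17 for respiratory chain subunits. Smaller or more variable medians also turned, to -1.75 for skeletal muscle, 0.34 for tumor epithelium, 0.29 for RAS and MAP kinase genes, 0.17 for cholesterol genes, 0.088 for cell cycle genes, -0.087 for pan-leukocyte genes, -0.073 for the stress response, -0.057 for MHC class I, -0.0475 for checkpoint genes and -0.023 for complement. Single genes turned to -0.16 (Cd274), -0.32 (Havcr2), -2.31 (Cxcl9), -0.63 (Gbp2), -0.43 (Igtp), -0.32 (H2-K1), -0.64 (Ptprc), -0.60 (Lpl) and -1.78 (Mx1).

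With each library left out, medians ranged from -0.11 to 1.93 for the IL-27 axis, -0.77 to 2.43 for antiviral genes, -1.49 to 4.23 for interferon-γ GTPases, -0.53 to 2.73 for MHC class I, -0.29 to 3.78 for MHC class II, -0.27 to 2.67 for cytokine receptors, -0.45 to 2.71 for checkpoint genes, -0.58 to 2.08 for chemokines, -0.28 to 1.97 for fatty acid genes, -0.34 to 2.98 for LXR targets, -0.48 to 0.71 for hypoxia and glycolysis, -0.52 to 2.43 for Toll-like receptors and -0.65 to 3.54 for complement. For cell types they ranged from -3.51 to 7.07 (adipocyte), -1.39 to 3.34 (T cell), -0.64 to 3.94 (NK cell), -2.35 to 3.07 (B cell), -0.60 to 5.28 (plasma cell), -0.42 to 2.43 (dendritic cell), -0.28 to 1.34 (endothelium), -0.53 to 1.02 (fibroblast), -0.37 to 0.96 (smooth muscle) and -0.28 to 1.40 (erythrocyte). Without IL-27 replicate 1 medians also turned to -1.03 for skeletal muscle, 0.28 for RAS and MAP kinase genes, 0.24 for cholesterol genes, -0.089 for pan-leukocyte and -0.0498 for macrophage genes, 0.054 for tumor epithelium, 0.041 for the respiratory chain and 0.0054 for cell cycle genes. Genes that turned ranged from -0.17 to 3.77 (Ebi3), -7.26 to 3.93 (Tbx21), -0.0603 to 2.52 (Havcr2), -2.64 to 5.2 (Cxcl9), -1.10 to 4.19 (Gbp2), -0.84 to 3.82 (Igtp), -0.53 to 3.23 (H2-K1), -0.75 to 4.51 (H2-Aa), -2.08 to 4.74 (Lpl), -1.95 to 7.15 (Plin4) and -1.21 to 4.02 (Mx1). Of 119 named genes, RLE scaling turned none and moved none across the threshold.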

Other observations

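Housekeeping programs were lower in IL-27 replicate 1 and not in replicate 2. Over all tested genes, replicate 1 was below both pMCS libraries for 36.5% and replicate 2 for 28.2%. Of 74 cytosolic ribosomal protein genes, replicate 1 was below both pMCS libraries for 70 and replicate 2 for 2, and 0 had an unadjusted p under 0.05 (edgeR). Their summed level was 150600 and 94380 CPM in pMCS and 65560 and 118900 CPM in IL-27. It ranged from 74570 to 196800 CPM in the 8 other treated libraries, so that it varied widely across the series. Of 66 nuclear genes for the respiratory chain, replicate 1 was below both pMCS libraries for 51 and replicate 2 for 3. Of 18 genes of cholesterol synthesis and uptake, 8 (44.4%, against 10.6% of all tested genes) had replicate 1 below and replicate 2 above pMCS.

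Lipid-handling and complement genes took the opposite order. Complement genes, 17 in number, summed to 368.5 and 1330 CPM in pMCS and 9803 and 452 CPM in IL-27, and none had both IL-27 libraries beyond pMCS. Targets of the sterol receptor LXR summed to 395 and 1139 CPM in pMCS and 7212 and 430 CPM in IL-27. Of these, 2 of 11 (18.2%, against 10.7% of all tested genes) had both IL-27 libraries above. Replicate 1 was above both pMCS libraries for all 11 and replicate 2 for 2, beside 26.5% of all tested genes for replicate 2. In both lists pMCS replicate 2 was the higher pMCS library, as it was for adipocyte markers.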
